A study of Drosophila melanogaster with 3 samples.

Results

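Neuropeptides and their receptors were examined as 58 genes, 27 that encode peptide precursors and 31 that encode their receptors, in the Bsh:Dam peak and gene lists of L4 neurons. The members were chosen by gene name, with earlier results of these data known. Each was looked up under its current and its older symbols, and all 58 were found in an annotation of 17684 genes on 6 chromosomes. A gene is said here to have a peak when the highest score listed for it was above 2.5, the study's threshold, in all 3 replicates. By this measure 13 of the 58 genes (22.4%) had a peak, against 9.74% of all annotated genes and 10.6% of the 13922 protein-coding ones. These were 10 of the 31 receptor genes (32.3%) and 3 of the 27 peptide genes (11.1%). The members have a median length of 9.85 kb, against 2.16 kb for protein-coding genes, and long genes had peaks more often. The shares in this paragraph are not matched for length. A line of any score in all 3 replicates was found for 14 members, against 13.2% of annotated and 14.2% of protein-coding genes, and a line in at least 1 replicate for 19, against 18.0% and 19.3%. A score above 2.5 in at least 1 replicate was found for 16 members, against 13.6% and 14.7%, and a score above 3 in all 3 replicates for 9, against 6.22% and 6.82%.

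Brain-specific homeobox (Bsh) is a homeodomain transcription factor of the L4 and L5 neurons of the fly lamina, the outermost relay of the visual system. In Targeted DamID a protein is fused to the bacterial Dam methylase, which then methylates GATC sites near the places where the protein sits. The study asked which genes Bsh binds in L4 while synapses form, at 46 to 76 hr of pupal development (APF), and deposited 1 group of 3 biological replicates, each set against Dam alone. Bsh:Dam animals came from the Bsh-TaDa line (UAS-GFP-Bsh-Dam) crossed to tubP-GAL80[ts] with 31C06-Gal4 and UAS-myristoylated-tdTomato, and Dam animals from the FlyORF-TaDa line crossed to the same males. Dam expression thus depended on the 31C06-Gal4 driver and on release of the temperature-sensitive GAL80, and every sample pooled laminae of many pupae. No other genotype, stage or cell type was measured, so no condition could be compared with another.

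Neuropeptides are cut from larger precursors, packed into dense-core vesicles and released to act on neighbouring or distant cells. Nearly all of their known fly receptors are G protein-coupled receptors, which change the excitability or second messengers of the receiving cell. A neuron can thus take part as a source, by its peptide genes, or as a target, by its receptor genes, and neurons of the visual system are known to do both. Most peptide genes are short, with a compact precursor, whereas receptor genes tend to carry long introns.

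The 3 peak lists hold between 2834 and 2891 peaks, with median scores from 2.77 to 3.08 and median lengths from 1508 to 1645 bp. Their scores run from 0.56 to 5.75. The score is the peak caller's own value and is already relative to Dam. The lists hold no reads, so the depth behind a peak is unknown, and a gene with no line has no called peak, which is not a measured lack of binding. Peaks are not transcripts, and the label of the cells could be set only against peaks. Of 7 marker genes of lamina neurons, the L4 gene ap had a peak, with highest scores of 4.19, 4.01 and 3.83 in replicates 1, 2 and 3, and so did the L1 gene svp, with 4.39, 4.31 and 3.94. The bsh gene was listed in replicate 1 alone, with 2.51, and pdm3, zfh1, bab2 and erm had no line. The peaks at markers thus give no check of the label. The lists give a score for the whole peak and not for exons or introns, and gene strand was not used, so the ends of a gene are called its lower and upper border by coordinate.

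Among the peptide genes, FMRFa, sNPF and Dh44 had a peak in all 3 replicates. FMRFa encodes the FMRFamide peptides, which modulate muscle and neuronal activity. Its highest scores were 4.30, 4.43 and 4.19 in replicates 1, 2 and 3 (mean 4.31 ± 0.12, SD, n = 3). This was the highest mean of the 58 genes, and the score equalled or exceeded that of 95.3%, 97.1% and 95.0% of the genes listed in replicates 1, 2 and 3. All of the score came from 1 narrow peak of 682 bp inside the gene, with the borders 9908624 and 9909305 on 2R in each of the 3 lists. The caller gave this peak FDRs of 0.0034, 0.0029 and 0.00041, and no other protein-coding gene lay within 1 kb of it.

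The sNPF gene, which encodes short neuropeptide F, a modulator of feeding and of synaptic transmission, had highest scores of 3.38, 3.33 and 3.17 (mean 3.29 ± 0.11, SD, n = 3). It had a pair of peaks in every replicate, which lie near opposite ends of its 28.5 kb. The higher one lies inside the gene on 2L, from 20051705 to 20052631 in replicates 1 and 2 and from 20051970 in replicate 3. The other scored 3.09, 3.29 and 2.80, and in replicates 1 and 3 it crossed the lower border of the gene from 20027663. No further protein-coding gene was within 1 kb of the pair. The peak inside the gene was the higher of the pair in every replicate, by the least in replicate 2.

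Dh44 encodes diuretic hormone 44, a peptide related to the corticotropin-releasing factor of vertebrates. Its scores were 3.23, 3.21 and 2.86 (mean 3.10 ± 0.21, SD, n = 3), close to the middle of the listed genes, with 54.0%, 51.3% and 50.5% of them at or below it. The peak covers 1286 bp on 3R, from 9639549 to 9640834 in each of them, and lies inside the gene. Its FDRs of 0.0049, 0.0078 and 0.0061 are near the authors' limit of 0.01.

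A further pair of peptide genes was listed in a lone replicate each. CCHa2, a peptide known from the fat body and gut as a nutrient signal, had a broad peak of 3470 bp with a score of 2.64 in replicate 1 and no line in replicates 2 and 3. Tk, which encodes the tachykinins, had a score of 1.81 in replicate 2 alone, at a peak of 3775 bp that also overlaps Ect3 and lies within 1 kb of KLHL18. The other 22 peptide genes had no line in any replicate. They are NPF, AstA, AstC, Mip, Dh31, CCAP, Capa, Crz, Proc, Pdf, Lk, SIFa, Dsk, Ms, ETH, Burs, hug, CCHa1, RYa, Eh, Nplp1 and ITP. Among these are the ecdysis peptides ETH, Eh, CCAP and Burs, and the clock output peptide Pdf.

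**Figure D1:**
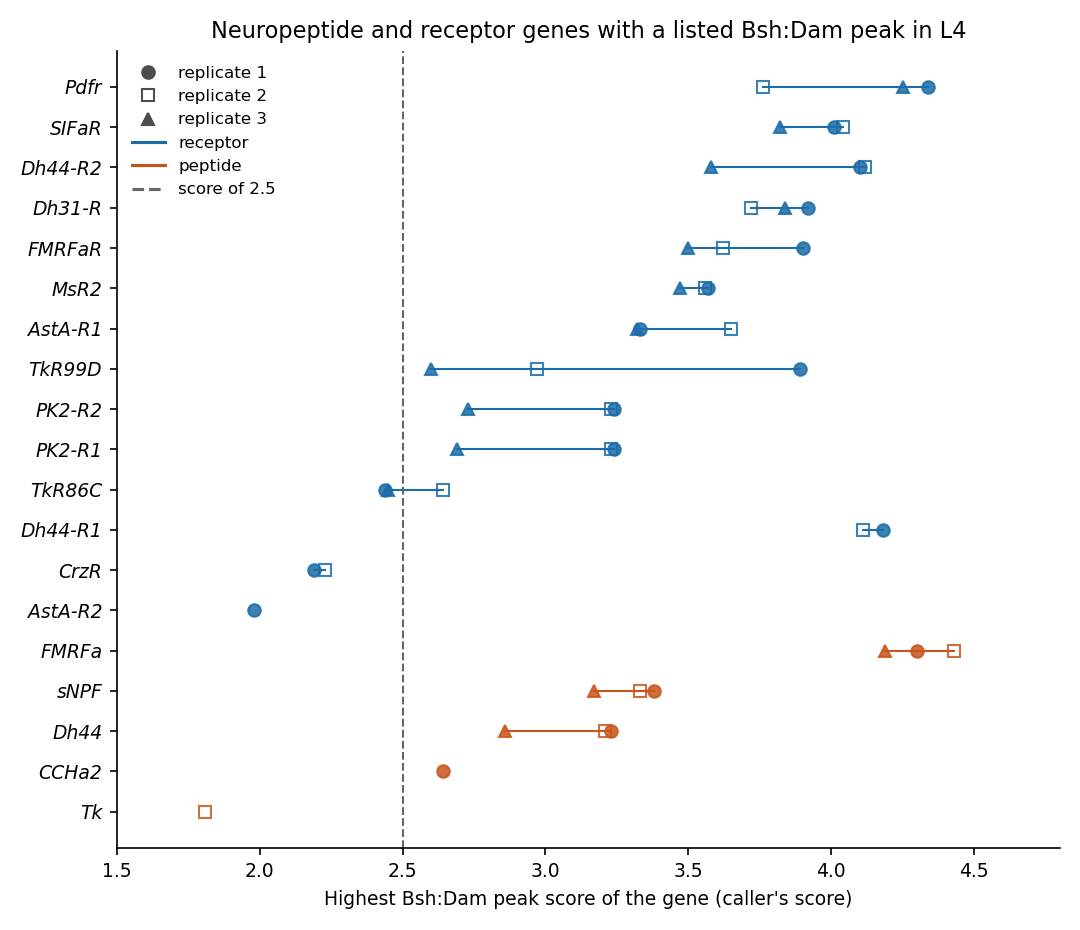
Highest Bsh:Dam peak score (x axis, the caller's score, no unit) of the 19 neuropeptide and receptor genes with a line in at least 1 replicate, receptors above peptides. Each point is a replicate, lines join the lowest and highest replicate of a gene, and the dashed line is the score of 2.5. Among the genes listed in all 3 replicates, FMRFa and Pdfr reach the highest means and TkR99D spreads most. Dh44-R1 lacks a point for replicate 3.

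Among the receptor genes Pdfr, Dh31-R, Dh44-R1 and Dh44-R2 are of the secretin-like type, a grouping made after the values were seen. All 3 replicates passed the threshold at 3 of these 4, against 7 of the other 27 receptor genes, and all 4 were listed in replicates 1 and 2. The 4 have a median length of 20.0 kb, against 17.7 kb for the other receptors. Among protein-coding genes 10.6% had a peak, with 26.3% from 10 to 20 kb and 47.8% from 20 kb. Since the grouping came from these same values, the contrast is description only and was not tested. The hec gene, a further secretin-like receptor outside the 58 genes, had no line.

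Pdfr, the receptor of the clock peptide PDF, had the highest mean among the receptors listed in all 3 replicates. Its highest scores were 4.34, 3.76 and 4.25 (mean 4.12 ± 0.31, SD, n = 3), and the mean difference from FMRFa was smaller than this spread. It had a pair of peaks inside the gene on X in every replicate. The first was 778 bp long in replicates 1 and 3, from 2561969 to 2562746, with scores of 4.34 and 4.25. In replicate 2 it was 3495 bp long, from 2559116 to 2562610, with 3.67. The second scored 3.78, 3.76 and 3.71 at nearly the same borders. Replicate 2 was thus low only at the place where its peak was drawn wider.

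Dh31-R is the receptor of the calcitonin-like diuretic hormone 31. Its highest scores were 3.92, 3.72 and 3.84 (mean 3.83 ± 0.10, SD, n = 3). It had 4 peaks in replicates 1 and 2 and 3 in replicate 3, on 2R, strung from 9.65 kb above its lower border to its upper border. The peak at the upper border ran from 13294460 to 13297145 in every replicate with 3.54, 3.62 and 3.16, and was the only one of them within 1 kb of another protein-coding gene, CG4734. The peak that replicate 3 lacked was the lowest in the other replicates, with 2.47 and 2.63.

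Both Dh44 receptors had a narrow peak inside the gene on 2R. Dh44-R2 scored 4.10, 4.12 and 3.58 (mean 3.93 ± 0.31, SD, n = 3) at a peak of 888 bp from 12479256 to 12480143 in every replicate. Dh44-R1 scored 4.18 and 4.11 in replicates 1 and 2, at a peak of 906 bp from 14382383 to 14383288. In replicate 3 it had no line, and the nearest peak was 94.9 kb away. Its 2 scores stood at or above 92.5% and 90.3% of the listed genes, the highest of any member that was not listed in all 3 replicates. The FDRs of that peak were 0.0034 and 0.005, and those of Dh44-R2 0.0034, 0.0029 and 0.0043.

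Of the other receptors, SIFaR, the receptor of SIFamide, a peptide known for its part in feeding, sleep and courtship, scored 4.01, 4.04 and 3.82 (mean 3.96 ± 0.12, SD, n = 3). A pair of its peaks had the same borders in every replicate, on 3R from 21285713 to 21287288 with 4.01, 4.04 and 3.73, and from 21287853 to 21290078 with 3.88, 4.04 and 3.82. A further peak started at 21291560 in replicates 1 and 3, across the upper border, with 3.13 and 3.04. In replicate 2 the further peak lay elsewhere in the gene, from 21283573, with 3.16 and within 1 kb of CG17298. The count of 3 lines per replicate therefore does not stand for the same 3 places.

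FMRFaR, the receptor of the FMRFamides, scored 3.90, 3.62 and 3.50 (mean 3.67 ± 0.21, SD, n = 3) at a peak of 1099 bp across its upper border, on 3L from 3011783 to 3012881 each time. Its second peak, inside the gene and up to 6182 bp long, scored 1.76, 2.12 and 1.74. The gene thus stands above the threshold only through the narrow peak at its border. MsR2, a receptor of myosuppressin, a peptide that inhibits visceral muscle, had the most even scores of the 13 genes, with 3.57, 3.56 and 3.47 (mean 3.53 ± 0.06, SD, n = 3). Its lone peak, inside the gene on 3L from 2285646 or 2286535, was 2386, 1497 and 944 bp long in replicates 1, 2 and 3, so the score hardly moved while the length did.

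AstA-R1, a receptor of allatostatin A and the longest of the 58 genes at 92.2 kb, scored 3.33, 3.65 and 3.32 (mean 3.43 ± 0.19, SD, n = 3). It had 5 peaks in each replicate, all inside the gene on X. The peak that ends at 3593169 scored 3.33, 3.64 and 3.32, and the others reached at most 2.77 except a peak of 1609 bp from 3619322 in replicate 2, with 3.65. AstA-R1 therefore had more peaks than any other member and passed the threshold in all 3 replicates at 1 place.

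TkR99D, the receptor of the tachykinins, spread most between replicates, with 3.89, 2.97 and 2.60 (mean 3.15 ± 0.66, SD, n = 3). At its upper part on 3R the peak of replicate 1 was 853 bp long, from 29965883 to 29966735, and scored 3.89. Replicates 2 and 3 had peaks of 4279 and 4611 bp there, which cover nearly all of it, with 2.53 and 2.18. At the neighbouring place from about 29957222 the scores were 3.32, 2.97 and 2.60. The neighbouring place alone was thus above 2.5 in every replicate, and it was narrowest and highest in replicate 1 too. TkR86C, a related receptor known to respond to natalisin, scored 2.44, 2.64 and 2.45 and so fell just short of the threshold in replicates 1 and 3. Its peaks inside the gene, from 10745709 to 10747822 and from 10749160 to 10750437 on 3R, were drawn at the same borders each time.

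The neighbouring genes PK2-R1 and PK2-R2, receptors of pyrokinins such as those made from hug, both passed the threshold, largely by the same peak. That peak starts inside PK2-R2, on 3R at 13333528 in replicates 1 and 2 and at 13334095 in replicate 3, crosses its upper border and runs toward PK2-R1. It was 4614, 5312 and 4745 bp long, and scored 3.24, 3.23 and 2.69. This was the only peak of PK2-R1, and in replicate 1 it ended 0.189 kb outside that gene. PK2-R2 had a further peak at its lower border, which in replicate 3 ended outside the gene, with 2.65, 2.82 and 2.73, so PK2-R2 passed the threshold without the shared peak and PK2-R1 did not. PK2-R1 and PK2-R2 reached means of 3.05 ± 0.31 and 3.07 ± 0.29 (SD, n = 3), the lowest of the 13 genes.

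CrzR, the receptor of corazonin, was listed in replicates 1 and 2 with 2.19 and 2.23 and not in replicate 3. AstA-R2 was listed in replicate 1 alone with 1.98. The other 17 receptor genes had no line. They are sNPF-R, NPFR, AstC-R1, AstC-R2, SPR, CCAP-R, CapaR, ProcR, Lkr, CCKLR-17D1, CCKLR-17D3, MsR1, ETHR, rk, CCHa1-R, CCHa2-R and RYa-R. They include rk, the bursicon receptor, and SPR, which responds to sex peptide and to the Mip peptides.

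Set side by side, a peak was thus found at 32.3% of receptor genes and at 11.1% of peptide genes. The receptor genes are also longer, with a median of 17.7 kb against 2.89 kb for the peptide genes, and 2.16 kb for all protein-coding genes. Long genes had peaks more often throughout the genome. Among protein-coding genes under 2 kb 3.35% had a peak, and the shares were 7.21% from 2 to 5 kb, 15.9% from 5 to 10 kb, 26.3% from 10 to 20 kb and 47.8% from 20 kb. Receptor genes had a peak in 0 of 1 case from 2 to 5 kb, 2 of 6 from 5 to 10 kb, 5 of 15 from 10 to 20 kb (33.3%) and 3 of 9 from 20 kb (33.3%). Peptide genes had none in 10 genes under 2 kb and in 4 from 5 to 10 kb, 1 of 8 from 2 to 5 kb, 1 of 3 from 10 to 20 kb and 1 of 2 from 20 kb. From 5 kb the receptor share was thus 33.3% in each class, above the protein-coding share from 5 to 20 kb and below it from 20 kb, with few genes in each. The difference between receptors and peptides in these counts cannot be told apart from that in length. Genes are not replicates, so it was not tested.

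**Figure D2:**
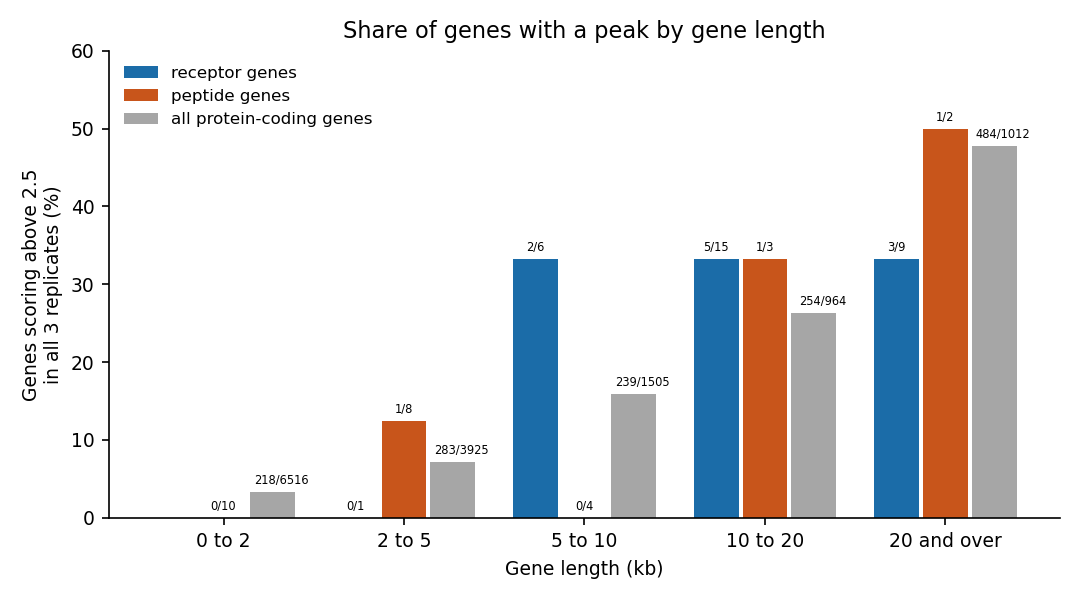
Share of genes with a score above 2.5 in all 3 replicates (y axis, percent) by gene length (x axis, kb), for receptor genes, peptide genes and all protein-coding genes, with genes with a peak over genes in the class above each bar. The share of protein-coding genes rises from 3.35% to 47.8% across the classes, and the receptor genes from 20 kb lie below it at 33.3%.

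Members of 20 kb or more were found with and without a peak, and 47.8% of protein-coding genes of that length had one. Of the 11 members of 20 kb or more, AstA-R1, sNPF, Dh31-R and Pdfr had a peak, whereas RYa-R (61.0 kb), SPR (47.4 kb), CCAP-R (32.8 kb), sNPF-R (30.5 kb), MsR1, ProcR and ITP had no line in any replicate. By score, a measure apart from having a peak, the highest mean was that of FMRFa, which is 4.16 kb long. Over the 13 genes the median of the mean scores was 3.53, close to the 3.47 of the 1478 protein-coding genes with a peak, so once a peak was present its score was like that at other genes.

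When each receptor was set against its own peptide, 31 known pairs could be formed. A peak was found at both genes in 2 pairs, at the receptor only in 8, at the peptide only in 2 and at neither gene in 19. These counts stand beside separate shares of 32.3% for receptor genes and 11.1% for peptide genes, against 10.6% of protein-coding genes. More pairs with the receptor only than with the peptide only thus restate those shares. Pairs share genes, so no test was made. Counted by peptide, with all of its receptors here, 24 systems fell into 2 with a peak at both, 7 at receptors only, 1 at the peptide only and 14 at neither. Eh, Nplp1 and ITP have no receptor in the list.

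The pairs with a peak at both genes were FMRFaR with FMRFa, and Dh44-R2 with Dh44. They ran in opposite directions. FMRFaR scored 3.90, 3.62 and 3.50 and FMRFa 4.30, 4.43 and 4.19, so the receptor was lower in 3 of 3 replicates, by -0.63 ± 0.21 on average (receptor minus peptide, SD, n = 3). Dh44-R2 scored 4.10, 4.12 and 3.58 and Dh44 3.23, 3.21 and 2.86, so the receptor was higher in 3 of 3 replicates, by 0.83 ± 0.10. In both pairs the difference was larger than its spread between replicates. The higher score in both pairs was also that of the narrower peak. These peaks were 682 bp long at FMRFa and 1099 bp at FMRFaR, and 888 bp at Dh44-R2 and 1286 bp at Dh44. Over all peaks narrow ones scored higher by the median, and the part of peak width in these differences was not tested. With 3 replicates an exact two-sided sign-flip permutation cannot go below p = 0.25, so no test is given. Dh44-R1 also scored higher than Dh44 where it was listed, by 0.95 and 0.90 in replicates 1 and 2.

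The sNPF system was the only one with a peak at the peptide alone. The sNPF gene had its pair of peaks in every replicate, while sNPF-R, of about the same length (30.5 kb), had none, and the nearest peak to it was 11.7 kb away. The opposite held for 7 systems, those of Pdf, SIFa, Dh31, AstA, Ms, Tk and hug. Here the receptors Pdfr, SIFaR, Dh31-R, AstA-R1, MsR2, TkR99D, PK2-R1 and PK2-R2 had a peak, and of the peptide genes only Tk was listed at all. For Pdf and hug a peak lay 6.64 and 6.53 kb away in every replicate, beyond the 1 kb within which the authors assigned genes. It scored 3.07, 3.39 and 2.88 near Pdf and 4.36, 4.50 and 4.16 near hug. For Tk a peak lay 4.66 kb away in replicates 1 and 3, with 4.04 and 3.82, and Tk passed the threshold in all 3 replicates with a margin of 5 kb. The scores near hug equal the highest scores listed for the octopamine receptor gene Octbeta3R in replicates 1, 2 and 3.

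**Figure D3:**
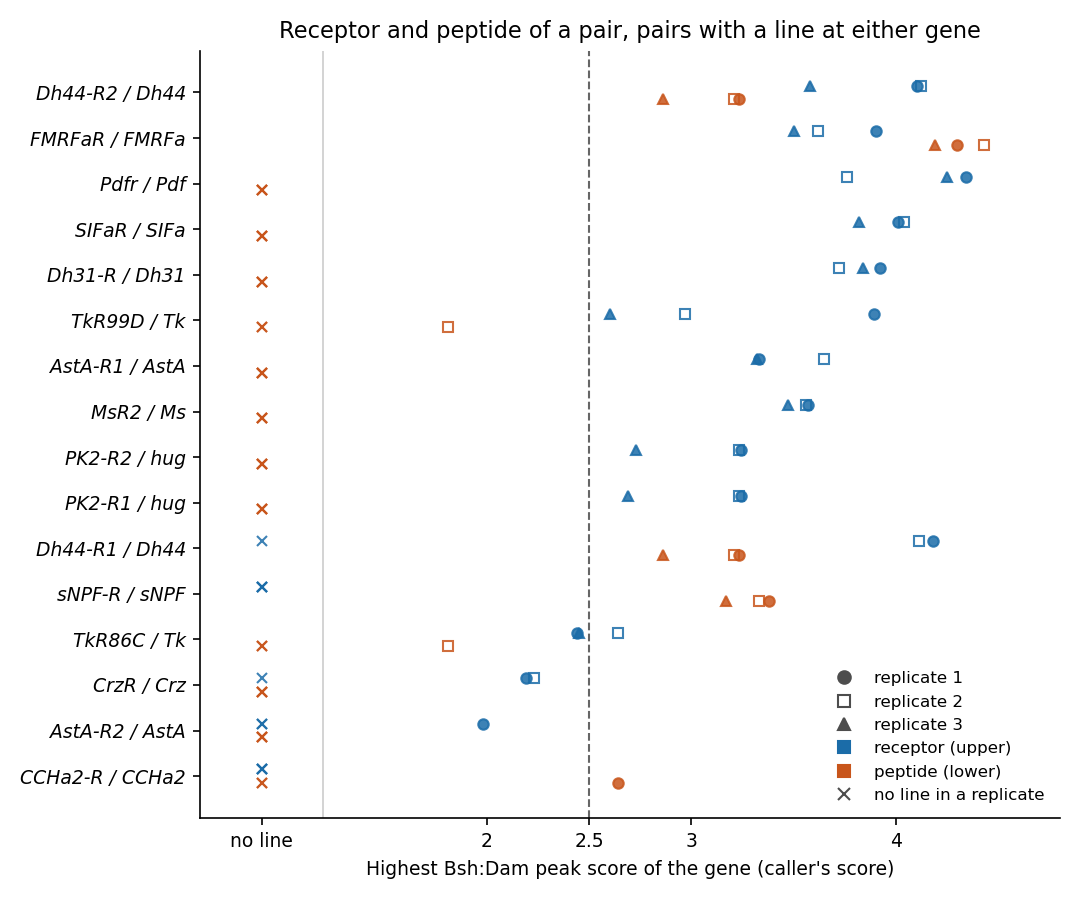
Highest Bsh:Dam peak scores (x axis, the caller's score) of the receptor (upper row, blue) and the peptide (lower row, orange) of the 16 pairs with a line at either gene. Each point is a replicate, crosses at the left, which overlap, mark replicates with no line, and the dashed line is the score of 2.5. FMRFaR lies left of FMRFa and Dh44-R2 right of Dh44 in all 3 replicates, and most other receptors face a peptide with no line.

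A peak was found at 32.3% of receptor genes, against 10.6% of protein-coding genes, and the counts by family that follow were not tested against these shares. Receptors that share a peptide family were not always called together. Of 7 such sets, both receptors had a peak for PK2-R1 and PK2-R2 alone, which lie 4.16 kb apart and share it. In 4 sets only 1 receptor did, namely AstA-R1 and not AstA-R2, Dh44-R2 and not Dh44-R1, MsR2 and not MsR1, and TkR99D and not TkR86C. For a pair of these sets the contrast rests on the call rule, since Dh44-R1 passed the threshold in replicates 1 and 2 (4.18 and 4.11) and TkR86C was listed in all 3 replicates with scores near the threshold (2.44, 2.64 and 2.45). MsR1 and MsR2 lie 21.7 kb apart on 3L, and the peak inside MsR2 is also the nearest to MsR1, at 34.7 to 35.2 kb. AstC-R1 with AstC-R2 and CCKLR-17D1 with CCKLR-17D3, receptors of the somatostatin-like and cholecystokinin-like peptides, had no peak at either gene.

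By position, the 58 genes had 32, 32 and 28 distinct peaks within 1 kb in replicates 1, 2 and 3. Of the gene and peak combinations, 72.7%, 78.8% and 75.9% lay wholly inside the gene, and of all peaks in these replicates 67.8%, 68.3% and 68.4% lay wholly inside some annotated gene. These are unlike measures, since the former hold only peaks within 1 kb of a member and the latter also peaks far from any gene. Another protein-coding gene lay within 1 kb in only 3, 5 and 3 of the combinations. Joined across replicates, the peaks formed 36 places, of which 25 (69.4%) had a peak in all 3 replicates and 9 (25.0%) the same borders in each. Over the genome 70.8% of 3339 places had a peak in all 3 replicates and 30.2% the same borders. The members' peaks were thus found again between replicates about as often as peaks in general.

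The 39 members with no line lay at a median of 21.8 kb from the nearest peak of any replicate. For 9 of them a peak was within 10 kb in at least 1 replicate, and for 2, ProcR and Ms, within 5 kb. ProcR, the proctolin receptor, had a peak 4.73, 4.39 and 4.39 kb away with 2.81, 2.81 and 2.38, and Ms, which encodes myosuppressin, had one of 1.99 at 4.42 kb in replicate 3. RYa, the shortest member at 0.420 kb, lay farthest from a peak, at 365 kb or more in every replicate.

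Genes linked to the making and release of peptides were counted as a list of 11 genes. Of these 4 had a peak in all 3 replicates (36.4%, against 9.74% of all annotated genes). They were svr, a carboxypeptidase that trims the cut peptides, Pal1, which completes amidation, IA-2, a protein of dense-core vesicles, and Fur1, a furin-type protease. The svr gene scored 3.34, 3.47 and 3.14, and Pal1 scored 3.08, 3.17 and 2.88. IA-2 scored 3.17, 3.22 and 3.58. Fur1, the longest of the list at 126 kb, scored 2.93, 3.99 and 2.72 and so stood highest in replicate 2. The convertase gene amon scored 2.90 and 2.99 in replicates 1 and 2, and in replicate 3 its score equalled the threshold without passing it. Phm, whose product starts the amidation that Pal1 completes, was listed in replicate 1 alone with 2.46, and Pal2, 7B2, dimm, Cadps and Fur2 had no line. The median length of the list is 10.4 kb, and that of its 4 genes with a peak 26151 bp. Among protein-coding genes 10.6% had a peak, with 26.3% from 10 to 20 kb and 47.8% from 20 kb. The share of the list was not tested.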

How the data were processed

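Binding of Bsh was measured in 3 replicates of 1 group, as Bsh:Dam over Dam in L4 neurons. The authors checked reads with FastQC 0.11.9, took Bsh:Dam to Dam ratios from the damidseq pipeline, called peaks per replicate with find_peaks at an FDR below 0.01, and listed genes within 1 kb with peaks2genes. The study names Bowtie2 among its software, and the genome build is not given in the sources used here. The deposited peak lists give a position, a score and the caller's FDR, and the deposited gene lists a symbol and a score, with no reads, so depth is unknown.

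Gene symbols, spans and lengths came from the RefSeq annotation of Release 6. The score of 99.9% of matched gene lines was found among the peaks within 1 kb of the gene, against 7.11% to 8.12% after shifting genes by 50 kb. All member lines were found so. On this basis spans were used, and no annotation coordinate is printed. Unmatched symbols numbered 33, 42 and 55 in replicates 1, 2 and 3.

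All values were computed in Python 3.11.15 with numpy 2.4.6, and figures were drawn with matplotlib 3.10.9. Peak assignment was tested on simulated peaks. A gene was counted with a highest score above 2.5 in all 3 replicates. Every member with a line is named with its scores and the others in groups, and other genes only where they lie within 1 kb of a member's peak, belong to the lists counted beside the members or mark the cells. The members and lists were chosen with earlier results of these data known. Alternatives were other score limits, FDR limits, margins and numbers of replicates, symbols as written, and each replicate left out. Sequences were not used here, so motifs were not counted. Dam libraries and reads were not analysed here.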

Additional observations from a re-analysis of the deposited data

How the results depend on the processing

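The number of members with a peak (13) was between 9 and 16 under all alternatives, and the number of receptor genes with one (10) between 7 and 12. Leaving out a replicate gave 13 to 14 members, 10 to 11 receptors, 3 peptides and 2 to 3 pairs, since Dh44-R1 was gained without replicate 3. With only peaks of FDR below 0.001 the peptide genes with a peak fell to 1, sNPF, and pairs with a peak at both genes to 0, as FMRFa, TkR99D, Dh44 and Dh44-R2 were lost. A score above 3 left 1 such pair, FMRFaR with FMRFa, and also lost TkR99D, Dh44, PK2-R1 and PK2-R2. Peaks within 5 kb of the gene gave 4 pairs, with Tk and TkR86C gained. PK2-R1 was lost when a peak had to overlap the gene itself or to lie away from other protein-coding genes. With the mean over a gene's lines in place of the highest score, FMRFaR minus FMRFa was -1.53, and 5 of 13 genes moved by more than the spread between replicates. Without a replicate the differences ranged from -0.75 to -0.55 for FMRFaR minus FMRFa and from 0.79 to 0.89 for Dh44-R2 minus Dh44. No paired analysis was possible because the 3 replicates form 1 group, with no other group to pair them with. The receptor minus peptide differences compare genes within each replicate. The depth behind a score is unknown, and a gene with no line may hold weaker binding.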

Other observations

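Peptides and receptors outside the 58 genes were counted in the same way. Of 20 further peptide genes, including Akh, natalisin, Trissin and 8 insulin-like peptide genes, 0 had a peak in all 3 replicates, and only Nplp4 was listed, with 2.24 and 2.25 in replicates 1 and 3. Their median length is 0.836 kb. Of 9 further receptor genes 1 had a peak (11.1%, against 9.74% of all annotated and 10.6% of protein-coding genes). It was InR, the insulin receptor and the longest of the 9 at 49.1 kb. InR scored 3.58, 3.87 and 3.91 (mean 3.79 ± 0.18, SD, n = 3). The other 8, among them TrissinR (32.8 kb), Lgr4 and Gyc76C (42.6 kb), had no line.

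Receptors of monoamines and muscarinic acetylcholine receptors are G protein-coupled receptors of another ligand class. A peak was found at 8 of these 20 genes (40.0%), against 9.74% of all annotated and 10.6% of protein-coding genes. Their median length is 28.7 kb, against 17.7 kb for the neuropeptide receptors, and 47.8% of protein-coding genes from 20 kb had a peak. The highest means were those of the octopamine receptors Octbeta3R, with 4.36, 4.50 and 4.16 in replicates 1, 2 and 3, and Octbeta2R, with 4.42, 4.16 and 4.34. The shares of these receptors and of the neuropeptide receptors were not tested against each other.

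By the median, wide peaks scored lower than narrow ones in all 3 replicates. Peaks under 1000 bp had median scores of 3.53, 3.61 and 3.33 in replicates 1, 2 and 3, and peaks of 3000 bp or more 2.58, 2.62 and 2.29. At Pdfr and TkR99D the replicates with the wide peak had the lower scores at that place. At MsR2 the widest peak, of 2386 bp, scored highest with 3.57 and the narrowest, of 944 bp, lowest with 3.47, and at the higher peak of sNPF the narrowest, of 662 bp, also scored lowest with 3.17. The part of peak borders in these replicate differences was not tested.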
